A study of Rattus norvegicus with 8 samples.

Results

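The aquaporin family was examined in rat kidney as a set of candidate channels for silicic acid, the dissolved form of silicon (Si). The members were the aquaporins and aquaglyceroporins Aqp1 to Aqp9 and Aqp11, and every probe set whose single annotated gene symbol was one of these names was kept. This gave 13 probe sets for 10 genes, of 31042 probe sets tested and 14217 genes that could be named. Aqp4 had 3 probe sets, Aqp1 had 2 and each other member had 1. The arrays measured RNA of left kidneys from female Sprague-Dawley rats at an age of 29 weeks. For 26 weeks, the Si deplete rats (4 arrays) took in 0.17 mg Si daily per kg of body weight, whereas the Si replete rats (4 arrays) took in 4.1 mg. Both groups ate the same formulated feed low in Si, and they differed in the drinking water, which carried orthosilicic acid in the Si replete group. Each array was hybridized with RNA of a single ground kidney, so that cortex, medulla and all cell types were measured together.

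Aquaporins are membrane channels that let water pass along an osmotic gradient. The aquaglyceroporins Aqp3, Aqp7 and Aqp9 have a wider pore that also passes glycerol and other small uncharged solutes. In plants, channels of this superfamily (Lsi1 and its relatives) carry silicic acid into cells, and the human aquaglyceroporins AQP3, AQP7 and AQP9 pass it when expressed in frog oocytes. Along the nephron, Aqp1 serves the proximal tubule and the thin descending limb, Aqp7 the straight part of the proximal tubule, and Aqp2, Aqp3 and Aqp4 the principal cells of the collecting duct. Aqp2, Aqp5 and Aqp6 lie next to each other in the RefSeq annotation of the rat genome assembly GRCr8, with no other protein-coding gene starting between them.

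No aquaporin passed the test between diets. Of the 13 probe sets, 0 were higher and 0 were lower in Si deplete kidneys at an adjusted p under 0.1 (limma, Benjamini-Hochberg over 31042 probe sets), where 0.151% of all probe sets passed, 0.113% as higher and 0.0387% as lower. The adjusted p-values of the members ran from 0.238 to 0.897. At an unadjusted p under 0.05 there was 1 member, Aqp11, which was lower, whereas 14.9% of all probe sets were under that value and 7.14% were so with a lower level. Aqp11 was also the 1 member whose Si deplete and Si replete arrays did not overlap, against 9.37% of all probe sets that separated in either direction and 4.70% that separated with lower levels in Si deplete kidneys. These shares of the members lie near those of all probe sets. Mean levels were lower in Si deplete kidneys for 10 of the 13 probe sets (12 when each array's median was subtracted), including all 7 with a mean log2 level of 4 or more (6 without Si deplete replicate 1). Of all probe sets, 52.6% had a lower mean in Si deplete kidneys, and of those with a mean of 4 or more, 51.2% had. The median difference of the members was -0.22 on the log2 scale, beside -0.01 for all probe sets, and it was -0.07 without Si deplete replicate 1.

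The values are log2 gcRMA levels, a scale on which 1 unit is a doubling. Probe sets differ in brightness for reasons other than abundance, so levels were compared between kidneys and not between genes. Means under 4 are close to the bottom of this scale, and 51.3% of all probe sets had such a mean. Of the members, 7 probe sets lay above it (both of Aqp1, and 1 each of Aqp2, Aqp3, Aqp4, Aqp7 and Aqp11) and 6 lay below it. In a whole kidney, fewer cells of a type and less RNA per cell cannot be told apart.

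Si deplete replicate 1 stood apart from the other arrays before any member was considered. On the first principal component, which held 42.1% of the variance, it lay at 64.0. The other Si deplete arrays lay at -1.9 to 19.2 and the Si replete arrays at -25.9 to -18.8, so the diets did not overlap there. Of all probe sets, 35 passed the same limma threshold of 0.1 as higher in Si deplete kidneys, and 12 passed it as lower. All 7 measured genes of a tubule injury list (Havcr1, Lcn2, Spp1, Timp1, Clu, Cd44 and Vim) had higher levels in every Si deplete kidney than in any Si replete kidney, although 0 of 7 passed on their brightest probe set (limma, adjusted p-values of 0.12 to 0.187) and 9.37% of all probe sets separated in either direction. The mean level of this list spanned 10.07 to 11.59 over the Si deplete kidneys and 8.52 to 9.59 over the Si replete kidneys, and it was highest in Si deplete replicate 1. Mean levels of the proximal tubule and principal cell marker lists were above 4 in every sample, whereas 1 of 4 measured thin limb markers had a mean under 4. The mean level of the proximal tubule list spanned 10.31 to 11.19 over Si deplete kidneys and 10.49 to 11.40 over Si replete kidneys, and that of the principal cell list 8.65 to 9.21 over Si deplete kidneys and 8.86 to 9.11 over Si replete kidneys. Of 5 adipocyte markers, 3 had means under 4, among them Plin1 and Lep, whereas the others had means of 5.24 and 5.26.

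**Figure D1:**
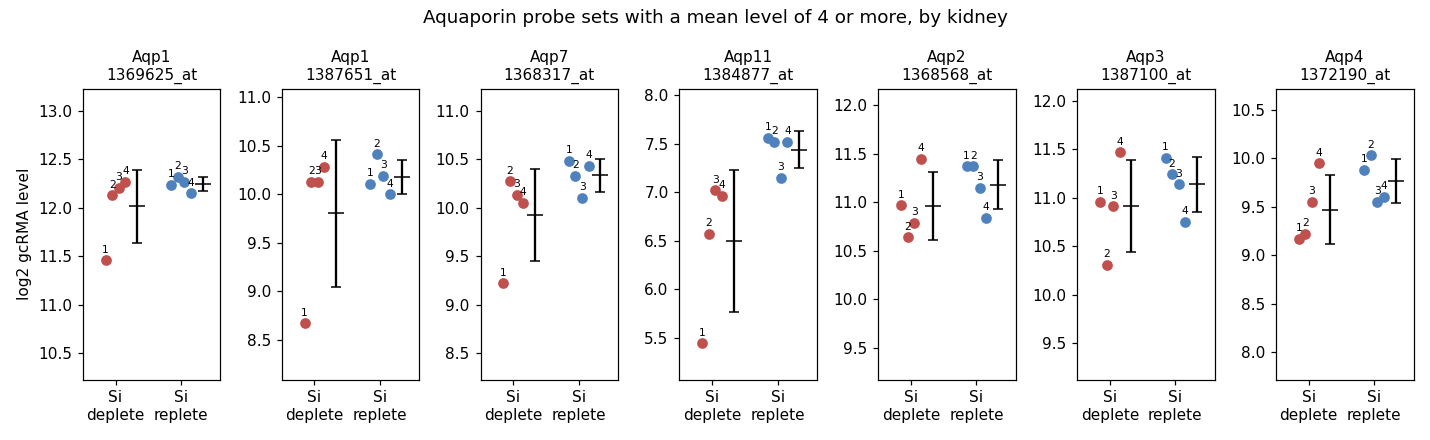
Log2 gcRMA level (vertical axis) of the 7 aquaporin probe sets with a mean of 4 or more, in each Si deplete (red, left) and Si replete (blue, right) kidney; points are arrays numbered by replicate, bars are the mean and SD of 4, and each panel spans the same number of log2 units. Of these panels, the groups are apart only for Aqp11, whose Si deplete kidneys span 5.44 to 7.02 and Si replete kidneys 7.15 to 7.56, and Si deplete replicate 1 is the lowest kidney for both Aqp1 probe sets, Aqp4, Aqp7 and Aqp11.

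Aqp11 had the largest difference of the family, also with any single array left out. This distant member resides in the endoplasmic reticulum of proximal tubule cells, and mice that lack it develop polycystic kidneys. Its level (1384877_at) was 5.44, 6.57, 7.02 and 6.96 in Si deplete replicates 1 to 4, against 7.56, 7.52, 7.15 and 7.52 in Si replete replicates 1 to 4. Every Si deplete kidney thus lay below every Si replete kidney, with the gap between the groups set by Si deplete replicate 3 and Si replete replicate 3. The means were 6.50 ± 0.73 in Si deplete and 7.44 ± 0.19 in Si replete kidneys (SD, n = 4 each). The difference was -0.94 (standard error 0.31, 95% interval -1.65 to -0.24), or 0.52-fold with an interval of 0.319 to 0.849. This missed the threshold (adjusted p = 0.238 from limma), and the p-values of 1877 other probe sets were smaller. An exact 2-sided permutation test of this probe set alone gave p = 0.0286, the smallest that the 70 arrangements of 4 against 4 allow. This value follows from the lack of overlap, which 9.37% of all probe sets shared, and adds nothing to it. Part of the size of the difference came from a single kidney: without Si deplete replicate 1 it was -0.59 (limma, adjusted p = 0.207), with the groups still apart. Groups that do not overlap stay apart whichever array is left out, so this adds nothing. The adjusted p with single arrays left out was 0.168 to 0.447 (limma).

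Aqp1 is the constitutive water channel of the proximal tubule and thin descending limb, and it is also found in red blood cells and in the endothelium of the vasa recta. On its brighter probe set (1369625_at) the level was 11.46, 12.13, 12.21 and 12.27 in Si deplete kidneys, against 12.24, 12.32, 12.27 and 12.15 in Si replete kidneys. On the other probe set (1387651_at) it was 8.67, 10.13, 10.13 and 10.28 in Si deplete kidneys, against 10.11, 10.41, 10.19 and 10.00 in Si replete kidneys. On both, Si deplete replicate 1 was the low kidney, and the other 3 Si deplete kidneys overlapped with the Si replete ones. The differences were -0.23 (standard error 0.17, 95% interval -0.61 to 0.15, limma adjusted p = 0.554) and -0.37 (standard error 0.32, 95% interval -1.10 to 0.35, adjusted p = 0.621). Without Si deplete replicate 1 they became -0.04 and 0.01. Of 7 measured endothelial markers 0 passed, with a median difference of 0.04, and 3 of 3 measured erythroid genes (Hbb, Alas2 and Ahsp) were lower in Si deplete kidneys at an unadjusted p under 0.05, as 18.5% of all genes were in either direction, while none of the 3 passed over all probe sets (adjusted p-values of 0.269 to 0.307). The part of these cells in the level of Aqp1 was not tested.

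Aqp7 is an aquaglyceroporin of the brush border in the straight proximal tubule. Its level (1368317_at) was 9.22, 10.27, 10.13 and 10.05 in Si deplete kidneys, against 10.48, 10.33, 10.10 and 10.43 in Si replete kidneys. Replicate 1 was again the lowest of the Si deplete kidneys, and the groups overlapped at Si replete replicate 3. The difference was -0.41 (standard error 0.21, 95% interval -0.90 to 0.07), which did not pass (limma, adjusted p = 0.397), and it was -0.18 without Si deplete replicate 1. Aqp7 is also the glycerol channel of fat cells, and adipocyte markers had a median difference of -0.10, with 0 of 5 passing. Of 4 markers of the straight proximal tubule, 4 were lower in Si deplete kidneys and 0 passed. Their mean lay 0.88 below the average of all kidneys in Si deplete replicate 1 (a deviation of -0.88), and at -0.10 to 0.08 in the other Si deplete kidneys, against -0.10 to 0.47 in Si replete kidneys. Over the 8 arrays, deviations of Aqp7 from its group means had a Pearson's r of 0.68 with those of this list. Without Si deplete replicate 1, r was -0.69. For Aqp11 the values of r were 0.77 and, without that kidney, -0.22. Whether the levels of Aqp7 and Aqp11 follow the amount of this segment in the sample was not tested.

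Aqp2, Aqp3 and Aqp4 differed by similar small amounts. Aqp2 is the channel of the apical membrane of principal cells that vasopressin moves to the surface and induces through cyclic AMP. Its level (1368568_at) was 10.97, 10.64, 10.79 and 11.45 in Si deplete kidneys, against 11.37, 11.37, 11.15 and 10.84 in Si replete kidneys. The groups overlapped, since Si deplete replicate 4 was the highest of the 8 kidneys and Si replete replicate 4 lay among the lower ones. The difference was -0.22 (standard error 0.19, 95% interval -0.64 to 0.20, limma adjusted p = 0.61), and it was -0.11 without Si deplete replicate 2 and -0.38 without Si deplete replicate 4.

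Aqp3, the aquaglyceroporin of the basolateral membrane of the same cells, had levels (1387100_at) of 10.96, 10.31, 10.91 and 11.47 in Si deplete kidneys, against 11.41, 11.24, 11.14 and 10.75 in Si replete kidneys. Its order of kidneys was much like that of Aqp2. The difference was -0.22 (standard error 0.23, 95% interval -0.75 to 0.30, adjusted p = 0.688), and it was -0.02 without Si deplete replicate 2 and -0.41 without Si deplete replicate 4. For Aqp4, which shares the basolateral membrane with Aqp3, the bright probe set (1372190_at) read 9.17, 9.22, 9.55 and 9.95 in Si deplete kidneys, against 9.88, 10.03, 9.55 and 9.60 in Si replete kidneys. Si deplete replicate 4 overlapped with the Si replete kidneys, whereas the other 3 lay below the lowest of them, replicate 3 by less than the printed digits. The difference was -0.29 (standard error 0.18, 95% interval -0.71 to 0.12, adjusted p = 0.482), and it was -0.19 without Si deplete replicate 1 and -0.45 without Si deplete replicate 4. Aqp4 was dim on its other probe sets, which differed by -0.22 (1368981_at) and -0.19 (1387397_at), so all 3 were lower and none passed. Of 7 principal cell markers 0 passed, with a median difference of -0.03.

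**Figure D2:**
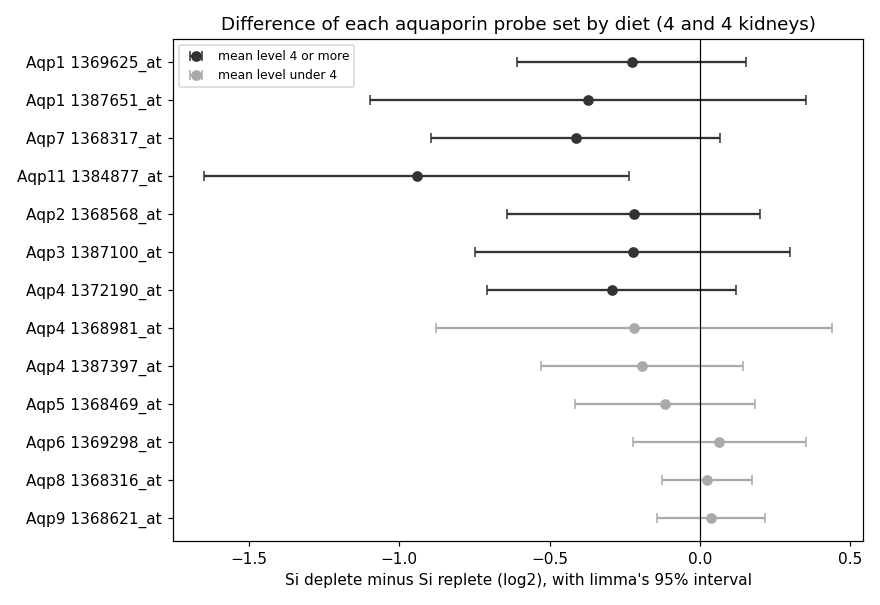
Difference of each of the 13 aquaporin probe sets, as Si deplete minus Si replete on the log2 scale (horizontal axis), with the 95% interval from limma; black points are probe sets with a mean level of 4 or more and grey points those under 4. The interval of Aqp11, -1.65 to -0.24, lies below 0 and the other 12 include 0.

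The regulators of Aqp2 were described as a list, because the abundance and position of this channel are set by vasopressin. Of 10 genes of vasopressin signaling, 0 were called higher and 0 lower, with a median difference of -0.05 beside 0.00 for all genes. The receptor Avpr2, named for its role after its value was seen, had a level of 7.46 ± 0.35 in Si deplete and 7.53 ± 0.18 in Si replete kidneys (SD, n = 4 each) and a difference of -0.06 (95% interval -0.45 to 0.32). The smallest p-values in the list were those of Pde4d, a phosphodiesterase that degrades cyclic AMP (-0.44, adjusted p = 0.375 from limma), and Adcy6, the adenylyl cyclase through which the receptor acts (0.15, adjusted p = 0.40). Gnas (0.09, limma adjusted p = 0.551) was the 1 gene of this list whose groups did not overlap, as 9.37% of all probe sets did not in either direction. Of 9 measured genes of Aqp2 trafficking, among them the vesicle proteins Stx4 (0.15) and Snap23 (-0.22), 0 passed, and their median difference was 0.00. Of 7 measured transcription factors of the collecting duct, 2 had means under 4, among them the 1 that was lower. Of the 7, 0 passed, with 6 higher and 1 lower and a median of 0.19 beside 0.00 for all genes. Elf3, an epithelial ETS factor, had the largest difference of these at 0.81 (standard error 0.24, limma adjusted p = 0.212). Its levels were 9.18, 8.21, 7.98 and 8.07 in Si deplete kidneys, against 7.68, 7.33, 7.57 and 7.61 in Si replete kidneys. The groups thus did not overlap, again beside 9.37% of all probe sets in either direction. Tfcp2l1 (0.24), which specifies cells of the collecting duct in mice, did not pass (adjusted p = 0.338).

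Cyclic AMP acts on the Aqp2 gene in part through the factor CREB, whose full binding element reads TGACGTCA. The 250 bases before to 50 bases after the start of each gene were searched in RefSeq promoter windows of GRCr8, which cover 9 of the 10 members in 10 windows. The full element was in 0 of these 10 and in 1.83% of all 33469 windows. Its last 6 bases, ACGTCA on either strand, were in 1 of the 10, that of Aqp2, and in 7.94% of all windows. The stretch is shown because it is from the 1 member window with these 6 bases, which are in capitals.
Aqp2, chr7:132590047-132590076, + strand: ggaaaacagaggACGTCAatccttatctgg
The match of 6 bases begins 227 bases before the annotated start. A match in letters is a description only, and no measurement of binding was made in these kidneys.

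Glycerol handling was described beside the aquaglyceroporins. Of 7 measured genes 0 passed, with 2 higher and 5 lower and a median difference of -0.28, which was -0.14 without Si deplete replicate 1. Gpd2, the mitochondrial glycerol-3-phosphate dehydrogenase, had levels of 6.64, 7.41, 7.40 and 7.29 in Si deplete kidneys, against 8.08, 8.00, 8.79 and 7.77 in Si replete kidneys. It separated the groups without overlap and had a difference of -0.97 (standard error 0.24, limma adjusted p = 0.172). Gk, the kinase that phosphorylates glycerol, separated them as well (-0.47, standard error 0.18, limma adjusted p = 0.288). Its levels were 10.72, 11.46, 11.61 and 11.59 in Si deplete kidneys, against 11.83, 11.75, 11.90 and 11.80 in Si replete kidneys. Gpd2 and Gk were the 2 genes without overlap of the 7 measured. Of all probe sets, 9.37% separated in either direction and 4.70% with lower levels in Si deplete kidneys. Gpd1 (-0.28) and Tkfc, which phosphorylates dihydroxyacetone (-0.40), overlapped between groups and had larger p-values.

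The other members were dim in every kidney. They were Aqp5, a channel of salivary, lacrimal and airway glands, Aqp6, an anion-conducting vesicle channel of intercalated cells, Aqp8, which is better known from liver, pancreas and colon, and the aquaglyceroporin Aqp9, which is prominent in liver and leukocytes. With the 2 dim probe sets of Aqp4, their values lay between 1.51 and 4.24. The level of Aqp9 (1368621_at), the remaining aquaglyceroporin, was 2.13, 2.30, 2.24 and 2.09 in Si deplete kidneys, against 2.08, 2.12, 2.21 and 2.22 in Si replete kidneys, and the groups overlapped (difference 0.04, 95% interval -0.14 to 0.22). Aqp5 was at 2.62 ± 0.28 in Si deplete and 2.74 ± 0.09 in Si replete kidneys (SD, n = 4 each, as for the next values). Aqp6 was at 2.81 ± 0.21 in Si deplete and 2.75 ± 0.17 in Si replete kidneys. Aqp8 was at 1.56 ± 0.05 in Si deplete and 1.54 ± 0.01 in Si replete kidneys. Their differences were -0.12 for Aqp5, 0.06 for Aqp6 and 0.02 for Aqp8. At this end of the scale a probe set may read mainly background, so these narrow intervals place no limit on a change of a transcript that the probes did not register.

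The members also varied among kidneys of the same diet. Deviations of each kidney from its group mean were compared between probe sets of mean 4 or more over the 8 arrays, as a description, since all points share the same arrays and normalization. Aqp2, Aqp3 and Aqp4 went together, with Pearson's r of 0.93 for Aqp2 with Aqp3, 0.78 for Aqp2 with Aqp4 and 0.74 for Aqp3 with Aqp4. Without Si deplete replicate 1 these were 0.94, 0.90 and 0.88, so they did not rest on that kidney. Among Aqp1, Aqp7 and Aqp11, r was 0.84 to 0.99 in 6 pairs of probe sets, and without Si deplete replicate 1 it was -0.60 to 0.88. The highest of these was between the pair of Aqp1 probe sets, and the remaining 5 ran from -0.60 to 0.28, so those relations rested on that kidney. Between the proximal and the collecting duct members, r was -0.21 to 0.67 over 12 pairs, and -0.40 to 0.82 without that kidney. Without it, Aqp1 (1369625_at) had an r of 0.82 with Aqp2, 0.80 with Aqp3, 0.77 with Aqp4, 0.24 with Aqp11 and -0.60 with Aqp7.

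**Figure D3:**
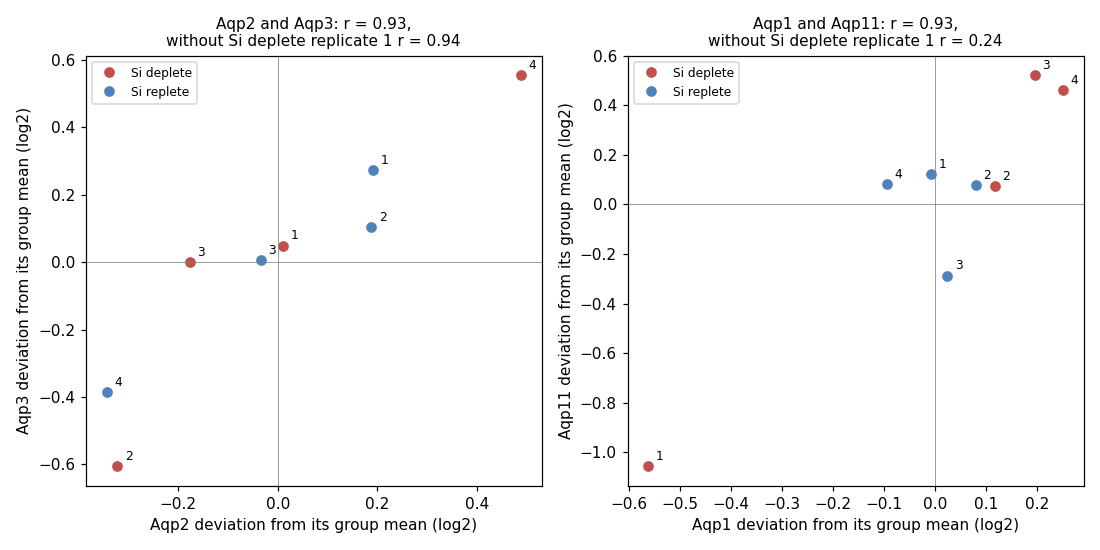
Deviation of each kidney from its group mean (log2, both axes) for Aqp2 and Aqp3 (left) and for Aqp1 (1369625_at) and Aqp11 (right); points are arrays, red for Si deplete and blue for Si replete, numbered by replicate. On the left the kidneys lie along a line (r = 0.93), while on the right the relation (r = 0.93) rests on Si deplete replicate 1 and is 0.24 without it.

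Si deplete replicate 1 was the lowest of the 8 kidneys for 5 of the 7 bright probe sets, both of Aqp1, Aqp4, Aqp7 and Aqp11, and it was the lowest for 24.9% of all probe sets with a mean of 4 or more. It deviated from the mean of all kidneys by -1.53 for Aqp11, -1.32 and -0.68 for Aqp1 and -0.90 for Aqp7, but by -0.10 for Aqp2 and -0.06 for Aqp3. For Aqp2 and Aqp3 the low kidney was Si deplete replicate 2, at -0.43 and -0.72, and the high one Si deplete replicate 4, at 0.38 and 0.44. In Si deplete replicate 1 the markers of proximal tubule and straight proximal tubule deviated by -0.52 and -0.88, those of principal cells by 0.23 and the tubule injury list by 1.71. The part of segment make-up or injury in these levels was not tested. The SD was larger in Si deplete than in Si replete kidneys for 13 of the 13 member probe sets and for 63.3% of all probe sets. Without Si deplete replicate 1 it was larger for 8 of the 13 and for 53.2% of all.

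**Figure D4:**
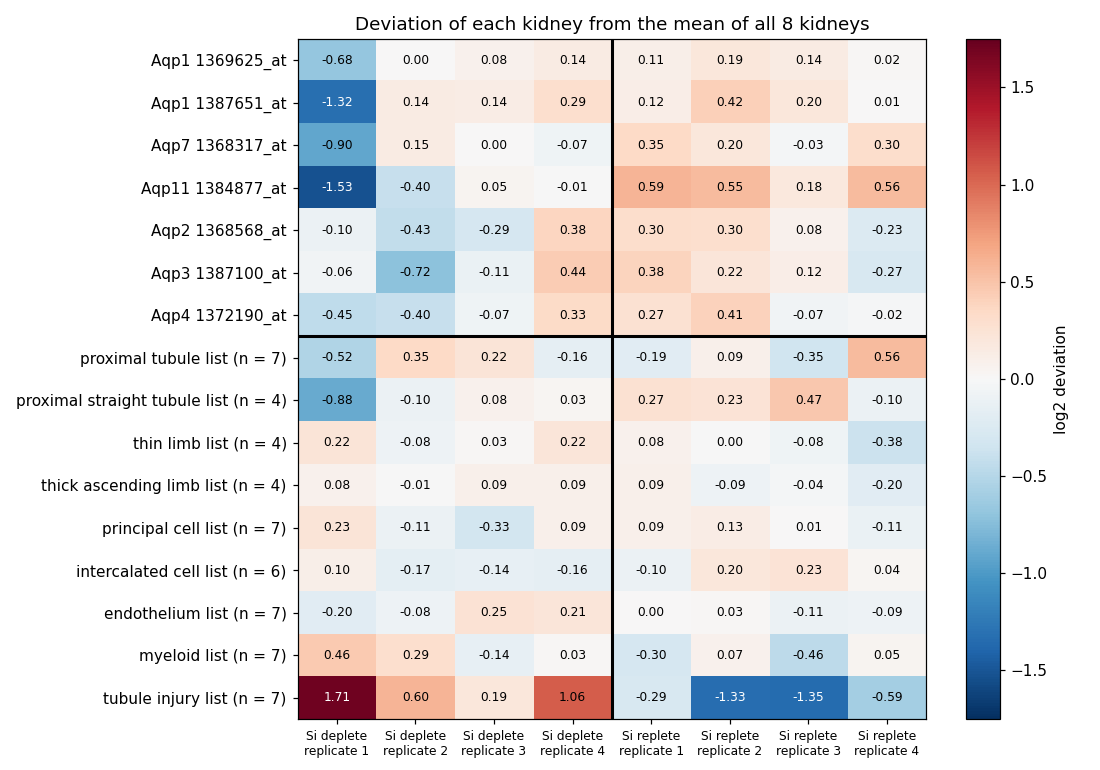
Deviation of each kidney (columns, Si deplete left) from the mean of all 8 kidneys, on the log2 scale, for the 7 bright aquaporin probe sets (upper rows) and for the mean of marker lists (lower rows, with the number of genes measured). Aqp1, Aqp4, Aqp7, Aqp11 and the straight proximal tubule list are lowest in Si deplete replicate 1, whose tubule injury list is highest at 1.71, while Aqp2 and Aqp3 are lowest in Si deplete replicate 2.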

How the data were processed

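The log2 values deposited by the authors are levels of probe sets on Affymetrix rat arrays, computed by gcRMA, which models background from probe sequence and normalizes the arrays jointly, with summarization by m-estimators (GCRMA 2.36.0 in the submitters' processing notes). The probe intensities were not analysed here. After 57 controls were left out of 31099 probe sets, Si deplete was compared with Si replete (4 and 4 arrays) in limma 3.58.1 under R 4.3.3. P-values were adjusted by Benjamini and Hochberg's method across the 31042 remaining probe sets, with 0.1, the methods' limit for q, as the threshold. Symbols came from the platform annotation, and the Entrez IDs of all 10 members have the same symbol in RefSeq. Lists used the brightest probe set of each gene. Members, lists and alternatives were chosen with earlier results of these data known. Named genes were all members, up to 4 genes of smallest p per list, and the 3 genes most correlated with each bright member. Avpr2, Lcn2, Timp1 and Clu were named outside this rule, after their values were seen. The analysis was tested on simulated data. By the paper's methods, killing and processing took a rat of every group on a given day. The sample labels do not link arrays to these days, so replicate numbers were not read as pairs. Each array is a separate rat, and 4 per group limit the precision. The alternatives changed the fit (array weights, an intensity trend, a robust prior, a replicate block), the values (quantile normalization, subtraction of array medians, leaving out probe sets of mean under 4, averaging the probe sets of a gene), the arrays (each left out once) or the false discovery rate (0.05 as the limit, or Storey's q-value at a lambda of 0.5). Correlations and spreads without Si deplete replicate 1 were added after seeing the data.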

Additional observations from a re-analysis of the deposited data

Results flagged for a closer look

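Of 26 groups of 4 kidneys (13 probe sets by 2 diets), 4 held a kidney far from the other 3, by its gap to the nearest kidney as a share of the group's range (Dixon's criterion), where chance gives about 1 in 20. In Si deplete kidneys this was replicate 1 for both Aqp1 probe sets, with a share of 0.836 on 1369625_at at a level of 11.46 and of 0.902 on 1387651_at at a level of 8.67. Both flags are the same kidney on probe sets of the same gene. The groups are thus not independent, and the count cannot be set strictly against 1 in 20. In Si replete kidneys it was replicate 3 for Aqp11, with a share of 0.893 at a level of 7.15, the kidney that lay nearest to the Si deplete group. It was also replicate 2 for a dim probe set of Aqp4 (1387397_at), with a share of 0.887 at a level of 3.17.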

How the results depend on the processing

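No aquaporin probe set passed in either direction under any setting tried, and the adjusted p of Aqp11 was 0.168 to 0.447 over the settings, with a q-value of 0.17. An intensity trend, a robust prior, the replicate block, the limit of 0.05, the q-value and leaving out dim probe sets cannot change a difference. With these settings counted in, 214 of 220 values of single probe sets under alternatives kept their direction. The exceptions were Aqp8 (-0.034) and Aqp9 (-0.020) with array medians subtracted, and, with single arrays left out, Aqp1 on 1387651_at (range -0.53 to 0.0060), Aqp9 (-0.00024 to 0.072) and Aqp6 (-0.0085 to 0.15). Member probe sets with an unadjusted p under 0.05 (limma) numbered 1 to 3 with single arrays left out. Of all 31042 probe sets, 3334 to 5332 were under that value in these settings, with the 5332 found without Si deplete replicate 4. Aqp5 joined Aqp11 without Si deplete replicate 1, Aqp7 did so without Si deplete replicate 2, and Aqp2 and Aqp4 did so without Si deplete replicate 4. Probe sets without overlap numbered 1 to 2, with Aqp4 (1372190_at) added without Si deplete replicate 4 and Aqp7 without Si replete replicate 3. The share of all probe sets without overlap is not given for these settings. Smaller groups separate more easily, so the added members are described and not read as results. The causes of these changes were not tested. The median difference of the members was -0.38 to -0.07 with single arrays left out. The replicate block leaves each difference as it was, since both groups hold the same replicate numbers. With it, Aqp11 (-0.94) had an adjusted p of 0.262 (limma), and no call of a member changed. Deviations of arrays with the same number correlated at 0.09, 0.09, 0.08 and -0.09. Over all probe sets, the 35 higher and 12 lower became 58 and 19 without those of mean under 4, 33 and 19 with array medians subtracted, 90 and 14 with the block, 121 and 51 by q-value, 0 and 0 at 0.05 (limma, 4638 at an unadjusted p under 0.05), and 0 to 235 and 0 to 67 with single arrays left out. Dim probe sets limit what can be said of Aqp5, Aqp6, Aqp8 and Aqp9.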

Other observations

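Among 9483 other genes with a mean level of 4 or more, those whose deviations from the group means were most like each bright member over the 8 arrays were named by a fixed rule; so many candidates over so few arrays give high values of r by selection alone, and these are descriptions. For Aqp2 they were Rps29 (r = 0.98), Mid1 (0.98) and Tns2 (0.97), and for Aqp3 Capn2 (0.98), Hs3st1 (0.97) and Rps29 (0.97), so that Rps29 was named for both. For Aqp4 they were Ilf2 (0.99), Pdia3 (0.97) and Plekhb1 (0.97). For Aqp1 they were Oxct1 (1.00), Atp6v1a (0.99) and Tmem59 (0.99), for Aqp7 Reps2 (0.99), Dcxr (0.99) and Sh3tc1 (0.98), and for Aqp11 Ust5r (0.99), Gstz1 (0.99) and Dpyd (0.99). Without Si deplete replicate 1 the 9 values of Aqp2, Aqp3 and Aqp4 were 0.97 to 0.99, and those of Aqp1, Aqp7 and Aqp11 were 0.88 to 0.98.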
